A study of Mus musculus with 6 samples.

Results

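The 10 heat shock genes described here are Hspa1a, Hspa1b, Hspa8, Hspb1, Hspb8, Hsph1, Dnajb1, Hsp90aa1, Hspd1 and Hspe1, which encode chaperones and co-chaperones of the cytosol and of the mitochondrial matrix. Their probe sets were taken as all those that the array annotation gives to exactly 1 of these symbols, which yielded 25 of the 45037 probe sets that are not array controls, and the genes are 10 of 18193 measured. Mouse vibrissa bulge epithelial cells, from mice 7 to 8 weeks old, were embedded as single cells in atelocollagen gel and grown for 6 days in NFFSE or NFFS medium. Both media held Noggin (an inhibitor of BMP signaling), FGF-7, FGF-10 and SAG (an agonist of hedgehog signaling), and NFFSE medium also held EGF, so that the comparison addresses the heat shock genes with and without EGF. The labels give 3 biological replicates for each medium, 1 Affymetrix array each, and 100 ng of RNA was labeled per array. Each repeat split its cells between both media, but the labels do not say which arrays share a repeat. The main fits and the exact tests below took the arrays as unpaired, and a block by replicate number was an alternative fit. The labels do not give the strain of the cultured cells, how many animals each culture drew on, or the hair cycle stage, and the isolation took the whole bulge epithelium rather than a sorted cell type.

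Heat shock proteins bind unfolded or partly folded proteins and help them to fold, to be held in solution or to be handed on for degradation. HSP70 proteins work in an ATP cycle that J-domain proteins start and nucleotide exchange factors such as HSP110 end, HSP90 matures signaling proteins including several receptors and kinases, small heat shock proteins hold unfolded clients without ATP, and HSP60 with HSP10 forms a folding chamber inside mitochondria. Many of these genes are transcribed through heat shock elements, arrays of inverted GAA units that trimers of heat shock factors bind, and in the epidermis and hair follicle heat shock proteins are made in the absence of heat as well as after stress.

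The promoter sequences of the genes that differed most between the media, and of the mitochondrial pair, are shown first because they carry the element by which this gene family is commonly grouped. RefSeq promoter windows of GRCm38.p6, from 250 bases before to 50 bases after each annotated start, were found for 8 of the 10 genes (11 windows, since 3 genes have 2 start sites each). The stretches below run 5′ to 3′ on the strand of the gene, upstream of its start (of the second annotated start for Hspd1), and the capitals mark matches to the 2-unit heat shock element, GAANNTTC or TTCNNGAA, and in Hspd1 and Hspe1 a run of overlapping matches.
Hspa1a, chr17:34972228-34972285, minus strand: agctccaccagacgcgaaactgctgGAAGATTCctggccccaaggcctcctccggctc
Hspb1, chr5:135887777-135887854, plus strand: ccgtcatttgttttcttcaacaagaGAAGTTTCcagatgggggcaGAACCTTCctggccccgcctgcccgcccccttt
Hsph1, chr5:149636337-149636394, minus strand: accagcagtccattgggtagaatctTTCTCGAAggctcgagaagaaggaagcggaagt
Hspd1, chr1:55088034-55088101, minus strand: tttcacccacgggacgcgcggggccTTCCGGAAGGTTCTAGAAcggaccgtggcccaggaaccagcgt
Hspe1, chr1:55088034-55088101, plus strand: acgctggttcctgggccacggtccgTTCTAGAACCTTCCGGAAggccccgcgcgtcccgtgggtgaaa

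The Hspd1 and Hspe1 lines are the same bases read on opposite strands, since these genes lie head to head. The 18-base run lay from -144 to -127 of the second annotated Hspd1 start and from -89 to -72 of the Hspe1 start. The first annotated Hspd1 start lies on the far side of this run, and its own window held no match. Hspa1b, at chr17:34959310-34959367 on the minus strand, has the same 58 bases as the Hspa1a line, and its element likewise lay from -104 to -97. The whole 300-base windows of Hspa1a and Hspa1b differed at 4 bases, 3 of them upstream, for an identity of 98.7%.

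A 2-unit match was found in 8 of 11 windows (72.7%), from 7 of the 8 genes, against 15.1% of all 32841 promoter windows of the same length. The matching windows are not independent. Those of Hspa1a and Hspa1b are nearly identical, the 2 of Hsph1 overlap, and Hspd1 and Hspe1 share a run. A 3-unit match, GAANNTTCNNGAA or TTCNNGAANNTTC, was found in 4 of 11 windows (36.4%), against 0.603% of all windows. These 4 windows belong to Hsph1 (2 windows over the same bases), Hspd1 and Hspe1 (the shared run), so they hold 2 separate stretches of DNA. Each 2-unit motif is its own reverse complement and the 3-unit motifs are reverse complements of each other, so both strands were covered, and every 3-unit match also holds 2-unit matches. In Hsph1 the 3-unit match lay after the start, and in Hspb8 the match lay from 3 to 10 bases after it. Neither Dnajb1 window held a match. Only exact matches inside the windows were sought, so an imperfect element or one outside them would be missed. These matches describe letters in a window of sequence, and they do not show binding of a heat shock factor in these cells.

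**Figure D1:**
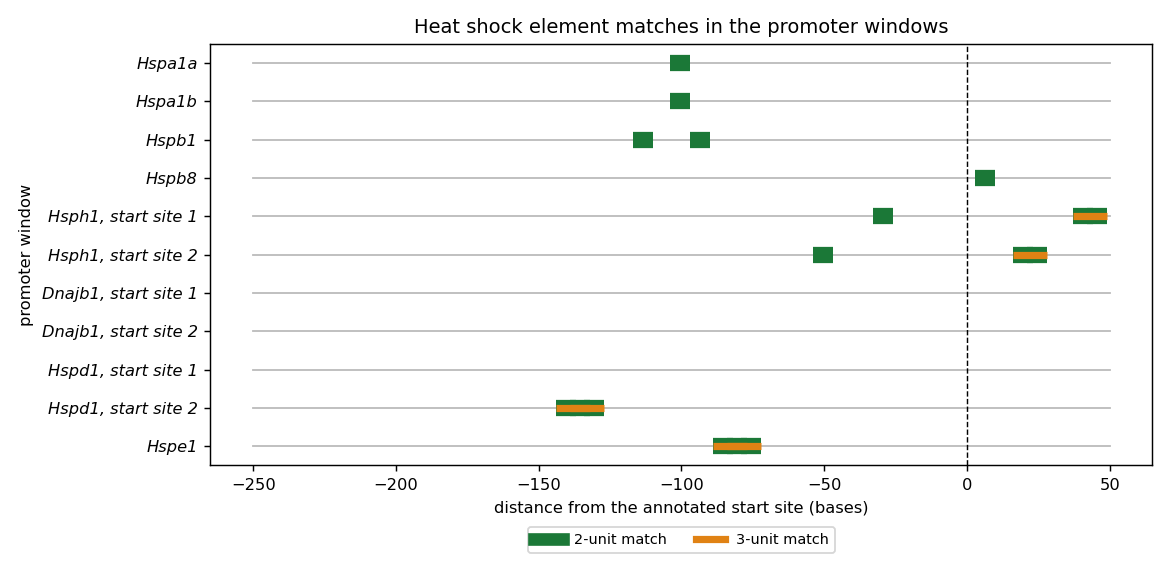
Positions of heat shock element matches in the 11 promoter windows of 8 heat shock genes, in bases from the annotated start site (dashed line). Green bars are 2-unit matches and orange bars 3-unit matches; 8 of the 11 windows hold a match, both Dnajb1 windows and 1 of the Hspd1 windows hold none.

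In NFFSE medium, 6 of the 10 genes were higher (Hspa1a, Hsph1, Hspb1, Hspd1, Hspb8 and Hspa1b) and none lower (0), while 4 missed the threshold (Hsp90aa1, Hspa8, Dnajb1 and Hspe1). Over all 18193 genes, 11.1% were higher and 15.4% lower in NFFSE by the same rule, an adjusted p under 0.05 in limma, a linear model that shares the estimate of spread across genes. The 10 genes are bright, and among the 1965 genes whose mean signal over all 6 arrays was at least that of the dimmest of them (Hspb8), 24.9% were higher and 16.9% lower. The median log2 difference, NFFSE minus NFFS, was 0.56 over the 10 genes and -0.01 over all genes. In 7 of the 10 genes every NFFSE array lay above every NFFS array, against 18.5% of all genes, and in none was every NFFSE array below, against 22.2% of all genes. In RNA from whole cultures, fewer cells of a type and less RNA per cell cannot be told apart.

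Read by probe set, 15 of the 25 were higher in NFFSE and 0 were lower, where 7.69% of all probe sets were higher and 12.7% lower. Every probe set of Hspa1a, Hspa1b, Hspb1, Hsph1 and Hspd1 was higher, although the size of the difference and its stability varied among the probe sets of Hspa1b. The probe sets of Hspa8, Hspb8, Dnajb1 and Hsp90aa1 gave differing calls, and neither of Hspe1 passed the test. All values below are deposited MAS5 signals, intensities on a linear scale in arbitrary units, listed for replicates 1, 2 and 3, and adjusted p-values of single probe sets are over all 45037.

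**Figure D2:**
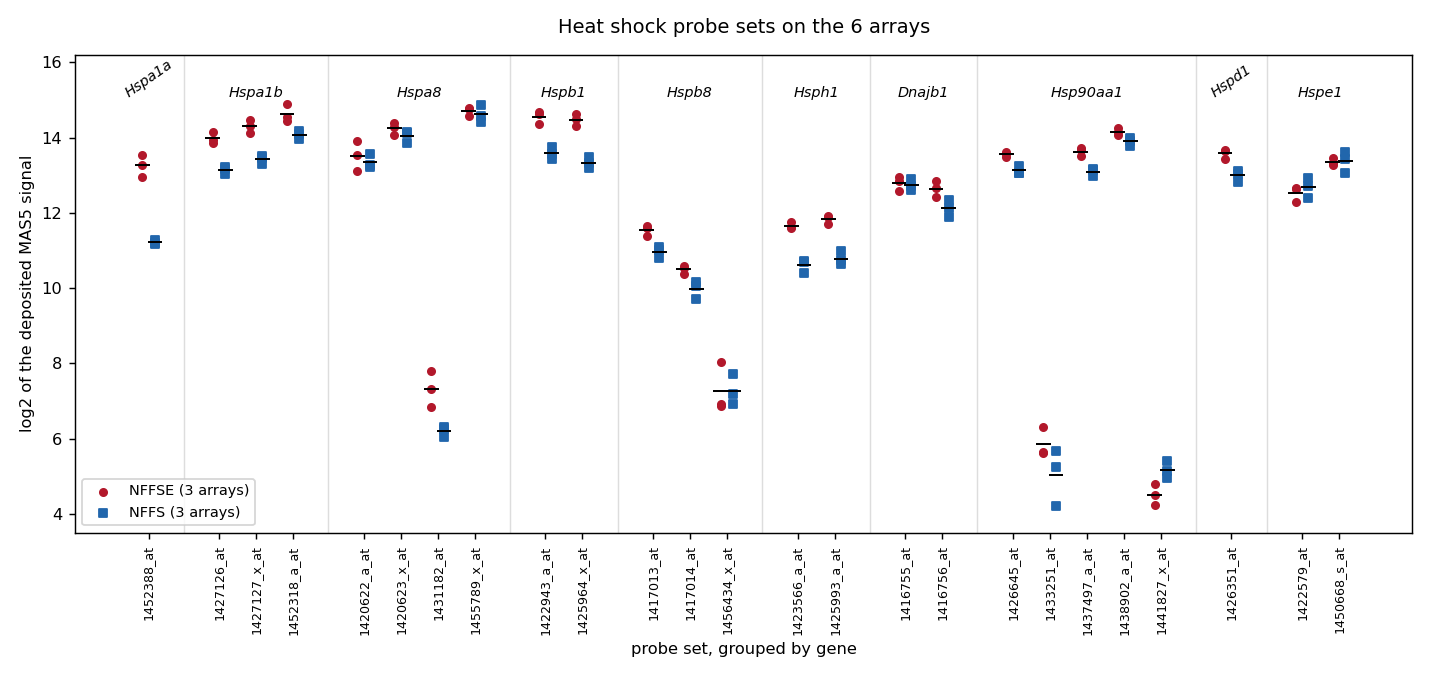
The log2 MAS5 signal of all 25 heat shock probe sets on each of the 6 arrays, with NFFSE as red circles, NFFS as blue squares and the mean of each 3 arrays as a bar. In 16 of the 25 probe sets every NFFSE array lies above every NFFS array, against 14.8% of all 45037 probe sets, with the widest gap for Hspa1a. In 1 dim Hsp90aa1 probe set, 1441827_x_at, every NFFSE array lies below every NFFS array.

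Hspa1a, 1 of the stress-inducible cytosolic HSP70 genes, had the largest difference of the 10. Its probe set 1452388_at read 7939, 9937 and 11944 in NFFSE and 2501, 2359 and 2308 in NFFS. The NFFS cultures lay close together, the NFFSE cultures spread more widely, and the lowest NFFSE array was still well above the highest NFFS array. The means were 9940.0 ± 2002 (SD, n = 3) and 2389 ± 99.9 (SD, n = 3), a 4.11-fold difference (log2 difference 2.04, SE 0.14, adjusted p from limma = 1e-05). By size of increase Hspa1a was 487th of 18193 genes.

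Hspa1b encodes a nearly identical HSP70 protein from the neighbouring gene, so signal of each gene may reach probes of the other, and the 3 Hspa1b probe sets cannot be read as a separate gene with certainty. Probe set 1427126_at read 14950.5, 15539 and 18299.7 in NFFSE and 9532, 9234 and 8397 in NFFS, and thus differed by 0.84 on the log2 scale (SE 0.12, adjusted p from limma = 6.7e-04). Probe set 1427127_x_at, of a class that can bind related transcripts, read 17744, 20207 and 22747 against 11728, 11221 and 10070.4, a log2 difference of 0.87 (adjusted p from limma = 7.9e-04). The groups did not overlap in either, and replicate 3 was the highest NFFSE array in both.

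The brightest Hspa1b probe set, 1452318_a_at, from which the gene was read, gave 22259, 24012 and 30485 in NFFSE and 15827, 18627 and 17652 in NFFS. All NFFSE arrays were above all NFFS arrays here too, by a log2 difference of 0.55 (SE 0.14, gene-level adjusted p from limma = 0.014). That gene-level call rested in part on 1 culture: without NFFSE replicate 3 the difference was 0.42 with an adjusted p of 0.056. It also did not pass after quantile normalization (0.27, adjusted p = 0.067), nor with a floor on low signals, no intensity trend or the methods' t-test (adjusted p from 0.067 to 0.094). Adjusted over all probe sets, 1452318_a_at passed in 8 of 16 alternative settings, whereas 1427126_at and 1427127_x_at passed in all 16; besides NFFSE replicate 3, its call was lost without NFFSE replicate 2, NFFS replicate 1 or NFFS replicate 3 (adjusted p = 0.056, 0.060 and 0.062).

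The increase of Hspa1a was larger than that of each Hspa1b probe set, by 1.20 log2 units for 1427126_at, 1.16 for 1427127_x_at and 1.49 for 1452318_a_at. Within each array the log2 signal of Hspa1a minus that of the Hspa1b probe set was higher in every NFFSE culture than in every NFFS culture (two-sided p = 0.1 by exact permutation for each, the lowest that 3 arrays against 3 can give, and 0.12 after adjustment over 6 such comparisons). These pairs were chosen after their values were seen. The upstream element of the 2 genes is the same in sequence, as printed above. Signal of each gene may reach probes of the other, and the Hspa1b probe sets were brighter than that of Hspa1a. The part of either in these gaps was not tested.

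Hspa8, the constitutive cytosolic HSP70 (HSC70), read 24452, 27900.5 and 28080.3 in NFFSE and 21692, 29849 and 24466 in NFFS at its brightest probe set, 1455789_x_at. The groups overlapped and the highest value was from an NFFS culture. The log2 difference was 0.09 with a 95% interval from -0.21 to 0.40 (gene-level adjusted p from limma = 0.70). At this probe set the interval lay below that of Hspa1a, 1.72 to 2.35. Probe sets 1420622_a_at and 1420623_x_at differed by 0.17 and 0.20, with adjusted p from limma of 0.61 and 0.36.

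A dim Hspa8 probe set, 1431182_at, behaved differently from the other 3. It read 114, 160.2 and 224 in NFFSE and 79.3, 66.4 and 76.4 in NFFS, with no overlap between the media. The log2 difference was 1.11 (SE 0.29, adjusted p from limma = 0.020), and it did not pass in 6 of 16 alternative settings, among them those without NFFSE replicate 2, NFFSE replicate 3 or NFFS replicate 2 (adjusted p = 0.065, 0.083 and 0.051). Which transcripts this probe set reads was not tested.

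Hsph1, an HSP110 protein that releases nucleotide from HSP70 and so frees its client, was higher in NFFSE by about the same amount at both probe sets. Probe set 1425993_a_at read 3848, 3825 and 3309 in NFFSE and 2027, 1587 and 1712 in NFFS. Probe set 1423566_a_at read 3487, 3096 and 3138 against 1641, 1361 and 1690.0. In both, all NFFSE cultures were far above all NFFS cultures, and the spread within each medium was small beside the gap. The log2 differences were 1.05 (SE 0.12, adjusted p from limma = 2e-04) and 1.06 (SE 0.12, adjusted p from limma = 1.5e-04).

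Dnajb1, the inducible J-domain protein (HSP40) that delivers clients to HSP70 and starts its ATP cycle, gave different answers at its 2 probe sets. The brighter, 1416755_at, read 6178, 7380.5 and 7862 in NFFSE and 6764, 7646 and 6182 in NFFS. Those groups overlapped almost fully, with a log2 difference of 0.06 and a 95% interval from -0.22 to 0.33 (gene-level adjusted p from limma = 0.81). The other, 1416756_at, read 5477, 6512 and 7328 against 4437, 5188 and 3826, and there every NFFSE array was above every NFFS array.

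The log2 difference at 1416756_at was 0.52 (SE 0.14, adjusted p from limma = 0.028). It no longer passed without NFFSE replicate 2, NFFSE replicate 3, NFFS replicate 1 or NFFS replicate 3 (adjusted p from 0.068 to 0.11), nor in 4 settings with all arrays (adjusted p from 0.052 after quantile normalization to 0.17 without the intensity trend). The 2 Dnajb1 probe sets differed in their response by 0.47 log2 units (two-sided p = 0.1 by exact permutation, the lowest attainable; 0.12 after adjustment), a pair chosen after its values were seen. No single statement for Dnajb1 holds across its probe sets.

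Hsp90aa1, the inducible cytosolic HSP90, had 5 probe sets, 3 of them bright. The brightest, 1438902_a_at, read 18009.5, 17317 and 19406 in NFFSE and 14123, 16279 and 15449 in NFFS. All NFFSE cultures were above all NFFS cultures, but the log2 difference was only 0.26, with a 95% interval from 0.02 to 0.49 and a gene-level adjusted p from limma of 0.11. Under the median centering of arrays the gene did pass (0.46, adjusted p = 0.0094), and after quantile normalization its difference was -0.003.

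The other bright Hsp90aa1 probe sets were higher in NFFSE. Probe set 1437497_a_at read 11572, 13402 and 13026 against 8079.6, 9022 and 9259.5 (log2 difference 0.53, adjusted p from limma = 0.0074, and 0.090 without the intensity trend). Probe set 1426645_at read 12176, 12484 and 11561 against 8572, 8582 and 9729.8 (log2 difference 0.43, adjusted p from limma = 0.016), a call that did not hold without NFFSE replicate 1 (adjusted p = 0.058) or NFFSE replicate 2 (adjusted p = 0.079), after quantile normalization (0.23, adjusted p = 0.12) or without the intensity trend (adjusted p = 0.13). Both showed a clear gap between the media. The dim probe sets 1433251_at and 1441827_x_at lay between 18.6 and 79.1 on all 6 arrays, 1 NFFS array of the former and 2 NFFSE arrays of the latter were at or under the background signal of 22.7, and neither passed the test (log2 differences 0.82 and -0.66).

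Hspb1 (HSP25, the mouse counterpart of human HSP27), a small heat shock protein that binds unfolded proteins and actin and is abundant in keratinocytes, was about 2-fold higher in NFFSE. Probe set 1422943_a_at read 20904, 26186 and 25499.7 in NFFSE and 12105, 13831 and 10989.8 in NFFS. Probe set 1425964_x_at read 20449, 25263 and 22876 against 10298, 11455 and 9322. The lowest NFFSE culture was well above the highest NFFS culture at both. The log2 differences were 0.97 (SE 0.13, adjusted p from limma = 6e-04) and 1.14 (SE 0.13, adjusted p from limma = 1.5e-04).

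Hspb8 (HSP22), the small heat shock protein that works with the HSP70 co-chaperone BAG3 in selective autophagy, was higher in NFFSE by a smaller amount. Probe set 1417013_at read 2667, 3099.7 and 3205 in NFFSE and 2179.5, 2067 and 1779 in NFFS, and differed by 0.58 on the log2 scale (SE 0.12, gene-level adjusted p from limma = 0.0049). Probe set 1417014_at read 1328, 1491 and 1532 against 1143, 1064 and 843, a log2 difference of 0.52 (adjusted p from limma = 0.021). The media did not overlap at either. The call at 1417014_at was lost in 6 of 16 alternative settings, those without NFFSE replicate 2, NFFSE replicate 3 or NFFS replicate 3 (adjusted p = 0.079, 0.075 and 0.076), with a floor on low signals (0.074), without the intensity trend (0.14) and by the methods' t-test (0.12).

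The third Hspb8 probe set, 1456434_x_at, was dim, overlapped fully between the media at 117, 262 and 120.2 against 146, 209.9 and 121, and had an interval from -0.75 to 0.74. With all 3 Hspb8 probe sets averaged, the gene-level call was lost (log2 difference 0.36, adjusted p from limma = 0.16), and it just missed the threshold without the intensity trend (adjusted p = 0.053) and by the methods' t-test (adjusted p = 0.051).

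In the mitochondria, Hspd1 (HSP60), which forms the folding chamber, was higher in NFFSE. Its 1 probe set, 1426351_at, read 12836, 13057 and 11043 in NFFSE and 8424, 7259 and 8902 in NFFS, with no overlap. The means were 12312 ± 1105 (SD, n = 3) and 8195 ± 845 (SD, n = 3), an increase of about the same size as that of Hspb8 (log2 difference 0.59, SE 0.12, gene-level adjusted p from limma = 0.0041). Adjusted over all probe sets, p was 0.0063, and 0.059 after quantile normalization, 0.084 without the intensity trend and 0.058 by the methods' t-test.

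Hspe1 (HSP10), the lid of the same chamber, did not pass the test at either probe set. Probe set 1450668_s_at read 10197, 9861 and 11212 in NFFSE and 8495, 12509.9 and 11141 in NFFS, so that the NFFS cultures spanned all of the NFFSE range. Its log2 difference was -0.02 with a 95% interval from -0.34 to 0.30 (gene-level adjusted p from limma = 0.93). Probe set 1422579_at read 6358, 4989 and 6497 against 5344, 7778 and 6726, overlapped as well, and differed by -0.15 (95% interval -0.50 to 0.20, adjusted p from limma = 0.59).

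Hspd1 and Hspe1, whose genes lie on opposite strands of the region printed above, differed in their response by 0.61 log2 units with 1450668_s_at (two-sided p = 0.2 by exact permutation) and by 0.74 with 1422579_at (two-sided p = 0.1 by exact permutation, the lowest attainable). After adjustment over the 6 comparisons these were 0.20 and 0.12, and both pairs were chosen after their values were seen. Neither comparison passed 0.05, which 3 arrays a medium cannot reach in this test.

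**Figure D3:**
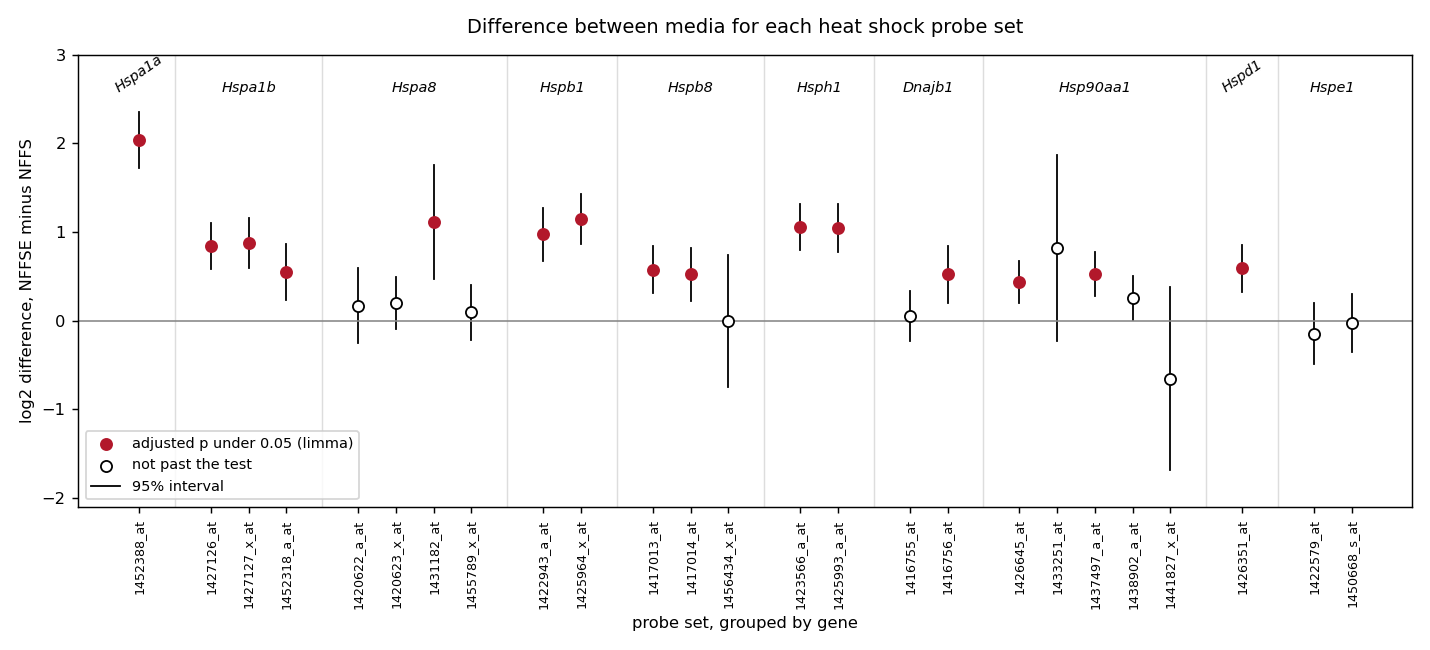
The log2 difference, NFFSE minus NFFS, of each of the 25 heat shock probe sets with its 95% interval; filled points passed an adjusted p of 0.05 in limma and open points did not. Differences range from -0.66 for a dim Hsp90aa1 probe set to 2.04 for Hspa1a, and all 15 filled points lie above 0.

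The order of the 10 genes by their difference was Hspa1a, Hsph1, Hspb1, Hspd1, Hspb8, Hspa1b, Hsp90aa1, Hspa8, Dnajb1 and Hspe1, with ranks among all 18193 genes from 487 to 9221. The interval of Hspa1a, from 1.72 to 2.35, lay above that of every other of the 10. The intervals of Hsph1 (0.78 to 1.32) and Hspb1 (0.68 to 1.27) overlapped each other, as did those of Hspd1, Hspb8 and Hspa1b, which ran between 0.24 and 0.85 in all. Among the NFFSE cultures, replicate 3 was the highest in 16 of 25 probe sets and replicate 1 in 2.

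**Figure D4:**
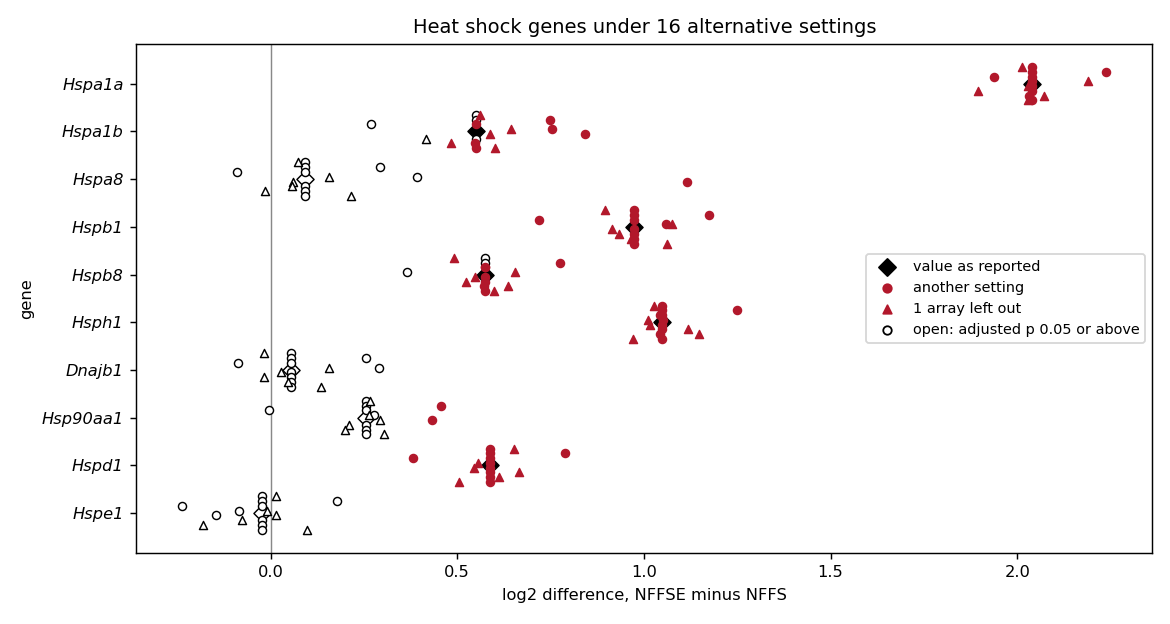
The log2 difference, NFFSE minus NFFS, of each of the 10 heat shock genes as reported (diamonds) and under 16 alternative settings, of which 6 leave out 1 array (triangles) and the others (circles) change the scaling, filter, probe set rule or test; filled red symbols are adjusted p-values under 0.05. Hspa1a, Hspb1, Hsph1 and Hspd1 stayed past the threshold in all 16, whereas Hspa1b lost it in 5 and Hspb8 in 3.

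The genes around these chaperones in the heat shock system were read from lists of textbook members, 101 genes of which 94 were measured. In NFFSE medium 20 of them were higher and 7 lower, 67 missed the threshold, with a median log2 difference of 0.21. Of all genes, 11.1% were higher and 15.4% lower. Among the 1965 genes with a mean signal at least that of Hspb8, 24.9% were higher and 16.9% lower. The lists hold both bright and dim genes, so neither share is matched to them in brightness. An excess over genes of like brightness was not tested, for these genes together or for any single list. The counts of the lists below are to be read beside these shares. Hsf1, the main heat shock factor, and Hsp90ab1, the constitutive HSP90, were not analysed here because no probe set is listed under either symbol alone. Of the 6 measured heat shock factors and their regulators, 0 were higher. Hsbp1, a small protein that binds heat shock factor trimers, was lower (5046 ± 293 against 7046 ± 759, SD, n = 3, adjusted p from limma = 0.0091). The other 5 were dim, with Hsf2 the brightest at 88.4 ± 23.6 in NFFSE and 94.9 ± 13.5 in NFFS (SD, n = 3), and a difference in them could have been missed.

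Among 7 other cytosolic HSP70 and HSP110 proteins, the HSP110 relatives of Hsph1 were both higher in NFFSE. Hspa4l read 7977 ± 597 in NFFSE and 4388 ± 805 in NFFS (SD, n = 3; log2 difference 0.88, adjusted p from limma = 0.0011). Hspa4 differed by 0.64 (adjusted p from limma = 0.0013). The other 5 did not pass. With Hsph1, all 3 cytosolic HSP110 genes were thus higher in NFFSE, a grouping made after the values were seen.

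The exchange factors and linkers that act on the HSP70 cycle had 4 of 10 higher and 1 lower. Bag2, an exchange factor that also restrains the ubiquitin ligase CHIP, had the largest increase among the 94 genes, at 847 ± 83.1 in NFFSE and 294 ± 67.3 in NFFS (SD, n = 3; 2.92-fold, adjusted p from limma = 1.7e-04). Stip1, which links HSP70 to HSP90, differed by 0.60, Bag3, the partner of Hspb8, by 0.45 and Bag1 by 0.41, whereas St13, which stabilizes the ADP-bound state of HSP70, was lower in NFFSE by 0.46 on the log2 scale (log2 difference -0.46; adjusted p from limma = 0.0041). Of 18 other cytosolic J-domain proteins, 3 were higher (Dnajc21 by 0.91, Dnajb4 by 0.75 and Dnajc2 by 0.41), Dnajc9, a histone co-chaperone, was lower (-0.64), and the list's median was -0.002.

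In the list of HSP90 and its co-chaperones, the 12 measured genes are all co-chaperones, and 2 were higher (Nudcd1 by 0.64 and Fkbp4 by 0.31). Fkbp5, an immunophilin of steroid receptor complexes that glucocorticoids induce, was lower (553 ± 20.7 against 1176 ± 105, SD, n = 3, adjusted p from limma = 1e-04). Of 8 other small heat shock proteins, 0 were higher and Hspb11 was lower (-0.77, adjusted p from limma = 0.0019); despite its symbol, Hspb11 encodes a subunit of the intraflagellar transport complex of cilia (IFT25). Cryab, the small heat shock protein closest in use to Hspb1, differed by 0.07 (adjusted p = 0.91). No gene of that list passed the test in the direction of Hspb1 and Hspb8. Apart from Hspb11 the genes of that list were dim. The brightest of these was Hspb6, at 183 ± 48.3 in NFFSE and 182 ± 40.5 in NFFS (SD, n = 3), and a difference in them could have been missed.

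Of 15 mitochondrial chaperones and proteases measured, 5 were higher and 1 lower, with a median of 0.33. Hspa9 (mortalin), the mitochondrial HSP70 that passes imported proteins to Hspd1, read 8159.6 ± 50.6 in NFFSE and 4785 ± 344 in NFFS (SD, n = 3; log2 difference 0.77, adjusted p from limma = 2.4e-04). The matrix protease Lonp1 differed by 0.70, the inner membrane protease Afg3l2 by 0.61, Clpb by 0.46 and Trap1, the mitochondrial HSP90, by 0.36. Hscb, a J-domain protein of iron-sulfur cluster assembly, was lower (-0.58, adjusted p from limma = 0.0051). Of 14 subunits of TRiC, the cytosolic chaperonin, and of prefoldin, 4 were higher (Pfdn2, Tcp1, Cct8 and Pfdn6, by 0.32 to 0.45) and 0 were lower. The genes of this list are bright. Among the 1965 genes with a mean signal at least that of Hspb8, 24.9% were higher and 16.9% lower, and a departure from those shares was not tested.

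A list of 17 measured genes outside the 10 that heat induces in many cells had 7 higher and 1 lower, with a median of 0.29; these 7 are Hspa4l, Dnajb4, Hspa4, Stip1, Bag3, Tcp1 and Fkbp4, all named above. The lower gene was Serpinh1 (HSP47), the collagen chaperone of the endoplasmic reticulum, at 3613 ± 385 in NFFSE and 8759 ± 1171 in NFFS (SD, n = 3; log2 difference -1.27, adjusted p from limma = 5.4e-05). For comparison, of 14 endoplasmic reticulum chaperones 2 were higher (Creld2 and Dnajb11) and Hspa13 was lower. The median of that list was 0.20, near the 0.21 of the 94 heat shock system genes.

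**Figure D5:**
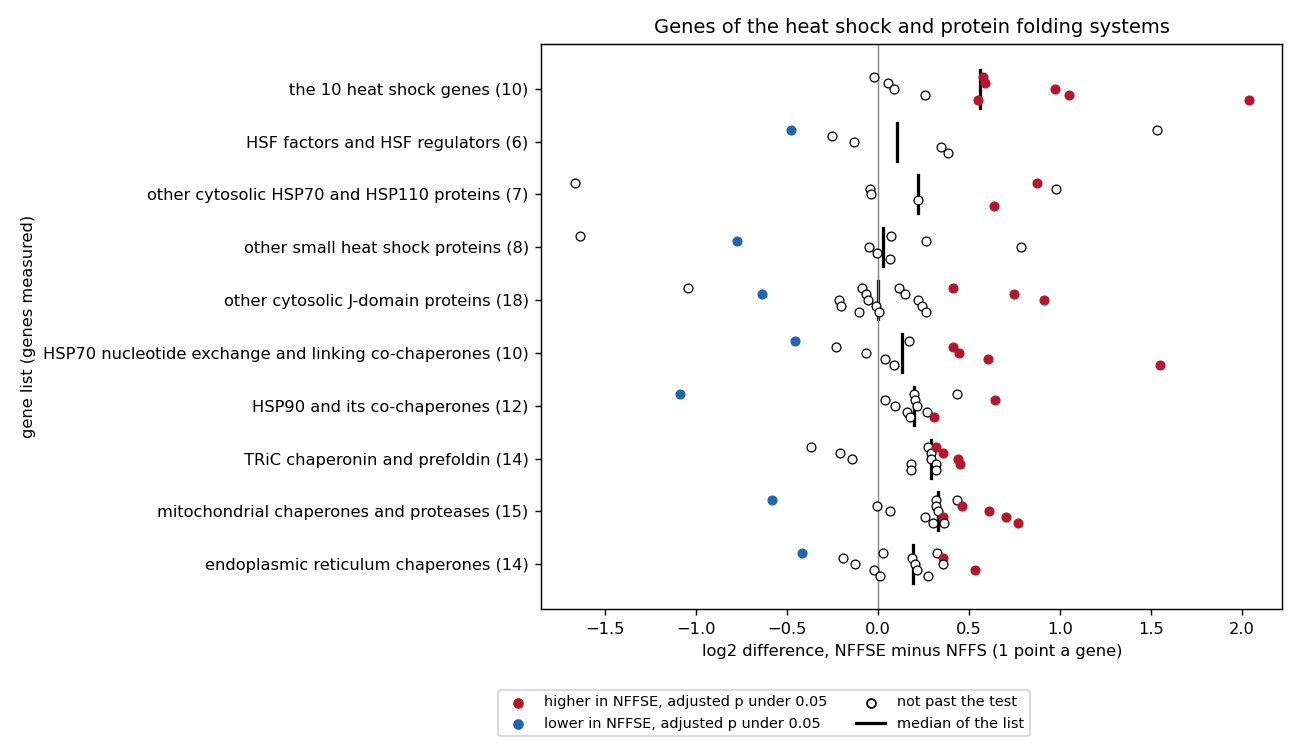
The log2 difference, NFFSE minus NFFS, of every measured gene in 9 lists of the heat shock and protein folding systems and of the 10 heat shock genes, 1 point a gene, with the list median as a bar; red and blue are higher and lower in NFFSE at an adjusted p under 0.05. The median of the 10 heat shock genes, 0.56, lies to the right of every list median, which run from -0.002 to 0.33. The 10 genes are all bright, whereas several lists hold dim genes, and the genes and lists were chosen with earlier results of these data known.

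Profiles over the 6 arrays were compared with that of Hspa1a by root mean square distance between log2 signals, each centered on its own mean. The candidates were 7276 genes whose mean signal in the higher medium was at or above the 60th percentile. The nearest were Ier3 at 0.10, Klf5 at 0.11 and Fam162a at 0.12. Ier3 is an immediate early gene that growth factors induce, Klf5 a transcription factor of proliferating basal epithelium and Fam162a a hypoxia-responsive mitochondrial protein. Ier3 read 23094, 26921 and 27669 in NFFSE and 6811, 6460.5 and 6157 in NFFS. Its close NFFS cultures and lowest NFFSE replicate 1 matched those of Hspa1a, a likeness that the choice by nearness brings with it. None of the other 9 heat shock genes was as near, with Hspb1 and Hsph1 closest at 0.55 and Hspe1 farthest at 1.06. This distance grows with the gap in log2 difference, so these genes, with smaller differences than Hspa1a, had to lie farther off. Their order here adds little to their differences.

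Values that moved with the medium beside these genes were the following. Keratins of the labeled epithelial origin were bright, with Krt14 at 32068 ± 3076 in NFFSE and 14007 ± 2859.5 in NFFS (SD, n = 3). Of 10 epithelial markers 5 were higher in NFFSE and Krt15, a bulge keratin, was lower (6961 ± 2355 against 26565 ± 3008, SD, n = 3; adjusted p from limma = 7.8e-05). Of 10 fibroblast markers 0 were higher and 4 lower, with summed signals of 2679 to 2762 in NFFSE and 6540 to 7690 in NFFS. Most of that signal was Sparc (Col1a2 was at 72.2 ± 8.7 against 173 ± 39.1). The fibroblast markers that missed the threshold were dim and went both ways. Their log2 differences were 1.40 for Pdgfra, 0.39 for Lum, 0.28 for Col1a1, 0.06 for Col3a1, -0.85 for Dcn and -0.48 for Pdgfrb. Of 7 smooth muscle and Schwann cell markers 2 were lower, with sums of 546 to 965 against 1388 to 1548. Melanocyte, leukocyte and endothelial marker sums overlapped between the media, at 197 to 567 over all arrays, with Mlana and Cd52 at background on all 6. Of 6 Merkel cell markers Krt18 was higher and Krt8 lower, with sums of 1958 to 2553 in NFFSE and 1247 to 1719 in NFFS.

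Among RNA quality controls, the 3′ minus 5′ log2 signal of Gapdh averaged -0.37 ± 0.011 over the NFFSE arrays and -0.62 ± 0.017 over the NFFS arrays (SD, n = 3 each; two-sided p = 0.1 by exact permutation, the lowest attainable), whereas those of Actb (p = 0.3) and Tfrc (p = 0.4, both exact permutation tests) overlapped. The part of these marker and RNA quality differences in the values of the heat shock genes was not tested. The median signal of an array was 56.5 to 65.0 in NFFSE and 66.5 to 70.6 in NFFS, after the scaling to an equal trimmed mean by the authors.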

How the data were processed

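Total RNA of bulge cell cultures was hybridized to Affymetrix mouse genome arrays. The authors deposited MAS5 signal intensity values on a linear scale (the MAS5 version is not given in the sources used here), scaled on every array to a mean of 500.003 without the lowest and highest 2% (checked on the values). Background correction and probe set summary are therefore the authors' and could not be changed. Of 45101 probe sets, 64 controls were left out, 34945 were listed with 1 symbol, 932 with several and 9160 with none. Each gene was read from its brightest probe set, and single probe sets were fitted separately.

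A linear model of the log2 signals, from limma 3.58.1 under R 4.3.3 (moderated variances with an intensity trend), gave NFFSE minus NFFS, without a replicate block, with Benjamini-Hochberg adjustment over all genes or all probe sets and a threshold of 0.05. The fit was tested on simulated data. Folds are antilogs of log2 differences, intervals are 95%, and the number of arrays limits the precision. Background was 22.7, the highest of 18 values of control probe sets for a transcript that mouse cells lack. Named genes were the 10 with every probe set, up to 4 genes of each list with the smallest p, and the 3 nearest profiles; others complete a count and were chosen after their values were seen. The members and lists were chosen with earlier results of these data known. Promoter sequences were from RefSeq (GRCm38.p6), which listed no window for Hspa8 or Hsp90aa1 in the table used. The 16 alternatives changed the scaling, the offset added before log2, the filter, a floor, the probe set rule, the trend, the block and the test (the methods' t-test), or left out 1 array.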

Additional observations from a re-analysis of the deposited data

How the results depend on the processing

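The count of higher heat shock genes, 6, was 4 to 8 under the 16 alternatives with 0 lower in each, and Hspa1a, Hspb1, Hsph1 and Hspd1 were higher in all 16. The 15 higher probe sets became 7 with no intensity trend in the fit and 9 by the methods' t-test after adjustment, and 10 to 14 with 1 array left out. The 20 higher and 7 lower genes of the wider heat shock lists became 40 and 4 with arrays centered on their medians, 11 higher with the mean of all probe sets, 10 higher without the trend, and 12 to 28 higher with 1 array left out (12 without NFFSE replicate 2, 13 without NFFS replicate 1). Centering moved the median of all genes from -0.01 to 0.19 and the calls over all genes from 2021 higher and 2805 lower to 2921 and 1810; the median of the 10 genes was then 0.76, and 0.33 after quantile normalization, where that of all genes was 0.07. Calls over all genes were 1339 higher and 1951 lower without the trend and 1283 and 1736 by the t-test. The sign of values that had not passed the test turned as follows, for causes that were not tested. After quantile normalization the log2 difference was -0.089 for Hspa8 1455789_x_at, -0.086 for 1420622_a_at, -0.088 for 1420623_x_at, -0.088 for Dnajb1 1416755_at, -0.0034 for Hsp90aa1 1438902_a_at and 0.18 for Hspb8 1456434_x_at. With median centering it was 0.18 for Hspe1 1450668_s_at, 0.054 for 1422579_at and 0.20 for Hspb8 1456434_x_at, which was 0.0023 with 16 added before log2. With 1 array left out it was -0.014 for Hspa8 1455789_x_at without NFFS replicate 1, and the range crossed 0 for Hspa8 1420622_a_at (-0.030 without NFFSE replicate 3 to 0.37 without NFFSE replicate 2), Dnajb1 1416755_at (-0.018 without NFFSE replicate 3 or NFFS replicate 3 to 0.16 without NFFSE replicate 1), Hspe1 1450668_s_at (-0.18 without NFFS replicate 1 to 0.097 without NFFS replicate 2) and Hspb8 1456434_x_at (-0.38 without NFFSE replicate 2 to 0.22 without NFFS replicate 2). With the replicate number as a block, 6 genes and 15 probe sets were higher and 0 lower, so it changed no count of the heat shock genes, and the wider lists had 24 higher and 7 lower. Deviations of same-numbered arrays correlated at 0.037 to 0.063, each array most with its own number, which does not establish a pairing although each repeat split its cells between both media. With 3 arrays a medium, the printed intervals set which differences could be detected, and probe sets near background have little meaning.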
